A study of Mus musculus with 19 samples.

Results

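The genes described here are 43 listed genes of cell division, from the cyclins that start DNA replication to the proteins that build the mitotic spindle, and their mRNA levels were followed in 19 microarrays of mouse Kupffer cells (KCs), the resident macrophages of the liver. A gene was kept where the array holds a probeset of that gene alone, and where there were several the brightest on average stood for the gene. By that rule 42 of the 43 genes were measured, out of 19938 genes in all, and Ccnb1 was not. All values are log2 intensities, so that a difference of 1 log2 unit is a doubling.

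The study emptied the liver of its embryonic KCs (em-KCs) with diphtheria toxin (DT) and profiled the monocyte-derived KCs (mo-KCs) that took their place. Mo-KCs came from KC-DTR mice, which carry the human DT receptor and a yellow fluorescent protein in the Clec4f gene, so that only cells that use Clec4f are killed. They were taken 15 days (3 arrays) or 30 days (5 arrays) after 50 ng of DT. Em-KCs came from untreated KC-DTR mice (3 arrays), from an untreated littermate without the receptor (1 array), from such littermates 15 days (2 arrays) and 30 days (2 arrays) after DT, and from WT mice that the labels do not call littermates (3 arrays). The first 8 of these em-KC arrays are called colony em-KCs here. All mice were 6 to 12 weeks old and on a C57Bl/6 background, all KCs were sorted by the same surface markers, with Clec4F among them, and each array is labelled as a biological replicate, with no number of mice given.

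Progress through the cell cycle is driven by cyclins and their kinases. Cyclin E and the E2F factors switch on the genes of DNA synthesis, the MCM helicase unwinds the DNA and the enzymes of nucleotide synthesis feed the new strands, and cyclins A and B with Cdk1 then carry the cell into mitosis. Many of these mRNAs are higher in dividing than in resting cells, though not all are absent from resting cells. Macrophages such as KCs can renew themselves by dividing where they reside. In a bulk array a higher level of such a gene can reflect more dividing cells or more RNA in each of them, and these cannot be told apart.

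Many cell cycle promoters carry short shared motifs, and their sequences are shown for 6 genes on which the results turn. TTTGAA is the core of the cell cycle genes homology region (CHR) found in genes of mitosis, CCAAT is bound by NF-Y, and TTTGGCGC, TTTCCCGC, TTTCGCGC and TTTGCCGC are forms of the E2F site found in genes of replication. Both strands were searched from 250 bases before to 50 bases after the start sites that RefSeq gives for build GRCm38.p6, and E2F words on opposite strands can overlap. Of the 42 genes, 35 had 37 such promoters. CHR was found in 18 of 24 promoters of the mitotic genes (75%) and 1 of 13 promoters of the G1/S and replication genes (7.69%), and in 17.9% of all 32851 promoters. An E2F form was found in 1 of 24 mitotic promoters (4.17%) and 4 of 13 replication promoters (30.8%), and in 2.26% of all promoters. CCAAT was in 27 of the 37 promoters (73%), against 37.4% of all. A match describes these letters only, and was not tested for function. Below, 1 CHR or E2F site is shown per gene, and some of these promoters hold more. A further CHR was found at -116 in Mki67, at -23 on the other strand in Top2a and at -167 in Ccnb2. Mcm6 had further E2F forms at -110 and, on the other strand, at -106. The windows are given 5′ to 3′ on the strand of the gene, with the motif in capitals and positions counted from 1 at the start site, so that the 5 mitotic genes can be compared with Mcm6.
Mki67, CHR at -98, chr7:135716461-135716488, minus strand: cgccgttttggTTTGAAtcgggcgggct
Top2a, CHR at -179, chr11:99024352-99024379, minus strand: tattggtccatTTTGAAgattctcccgc
Ccnb2, CHR at 5, chr9:70421534-70421561, minus strand: gcggcgcggtaTTTGAAtcgcggaccgg
Ube2c, CHR on the other strand at -29, chr2:164769889-164769916, plus strand: gagggttgcaaTTCAAAcgcgggcggcg
Ttk, CHR on the other strand at 8, chr9:83834685-83834712, plus strand: agcggggaaatTTCAAAcgtgtttccgg
Mcm6, E2F at -47, chr1:128359734-128359763, minus strand: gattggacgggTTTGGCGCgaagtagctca
In the promoter of Rrm2, the searched stretch held CCAAT alone of these motifs, at -50.

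The arrays were checked before the genes were compared. Clec4f, Vsig4, Cd5l and Csf1r, which mark KCs or macrophages, lay between 10.66 and 13.03 in all 19 arrays. Clec4f was lower in day 30 mo-KCs than in em-KCs, by -1.26 (limma adjusted p = 0.000156). The KC markers Timd4, Cd163 and Marco were lower at day 15, by -3.75, -1.86 and -1.55. At day 30 they were lower by -2.28, -1.97 and -0.97 (limma adjusted p under 0.05 for each). No other measured KC marker was called on either day. The mean over all 19938 genes was 6.30 to 6.34 in every array. By the levels of Xist and the Y-linked gene Eif2s3y, the arrays fell into a set of 6 with high Xist, made up of the 3 WT em-KC arrays and replicates 3 to 5 of the day 30 mo-KCs, and a set of 13 with high Eif2s3y, which held all others. The labels do not give the sex, so the sets are named here by those genes, and results for day 30 are given within each set where they differ.

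Day 15 mo-KCs had higher average levels of the 42 genes than em-KCs, but their 3 arrays differed widely. The mean of the 42 genes was 7.21, 6.81 and 7.60 in day 15 replicates 1, 2 and 3, and 7.02, 6.98, 7.10, 6.71 and 6.84 in day 30 replicates 1 to 5, against a range of 6.58 to 6.96 with a median of 6.75 in em-KCs. Replicates 1 and 3 of day 15 thus lay above every em-KC array and replicate 2 lay inside their range, as did replicates 4 and 5 of day 30. The group means were 7.21 ± 0.39 at day 15 (SD, n = 3) and 6.77 ± 0.12 in em-KCs (SD, n = 11).

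**Figure D1:**
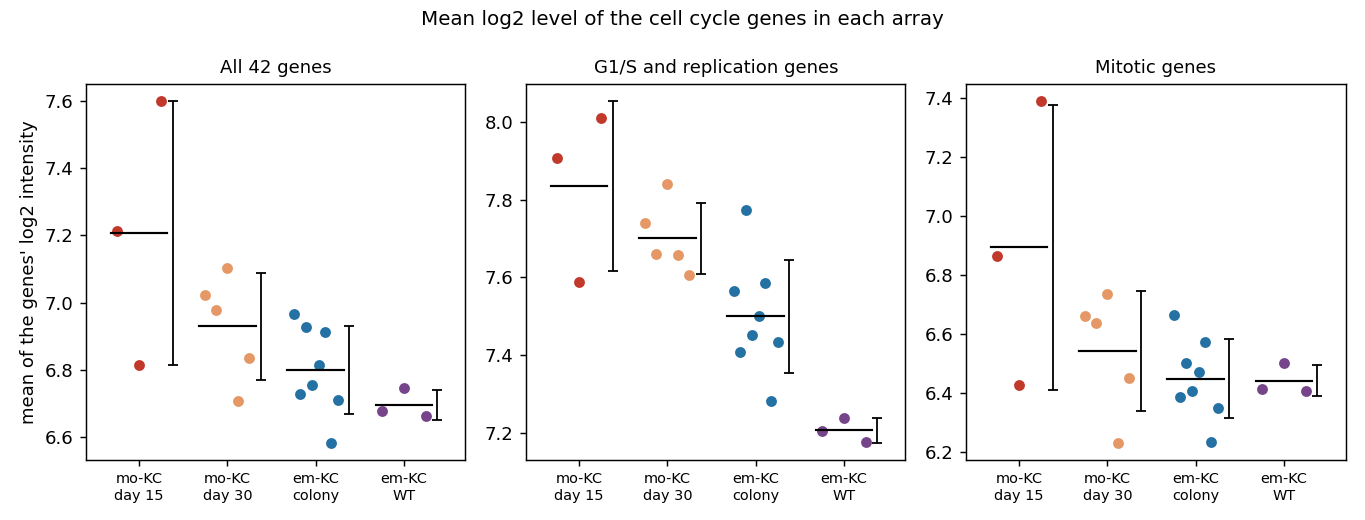
Mean log2 intensity of all 42 cell cycle genes, of the 14 G1/S and replication genes and of the 28 mitotic genes in each of the 19 arrays (points), with the group mean (line) and SD (bar), for day 15 mo-KCs, day 30 mo-KCs, colony em-KCs and WT em-KCs. Day 15 replicate 3 is the highest point for all 42 genes, at 7.60, and the WT em-KCs are the lowest group for the replication genes.

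The spread of day 15 was ordered in the same way across nearly all the genes. Replicate 3 was the highest of all 19 arrays for 33 of the 42 genes, which held for 3.9% of all genes, and it was above every em-KC array for 35 (7.86% of all genes). Replicate 2 was the lowest of the 3 day 15 arrays for 40 of the 42 (31.3% of all genes), and 4 genes in it, Mki67, Ccne1, Aurkb and Ttk, were above every em-KC array (6.58% of all genes). Replicate 1 was above every em-KC array for 20 of the 42 (7.25% of all genes). The order of replicate 3 over 1 over 2 held for 36 of the 42 genes (15.7% of all genes). Replicate 3 was at least 2-fold above replicate 2 for 15 genes (0.336% of all genes) and the opposite held for 0 (0.0802%). Those 15 were Top2a, Ccna2, Ccnb2, Cdk1, Bub1, Plk1, Birc5, Cenpe, Cenpf, Tpx2, Prc1, Rrm2, Ube2c, Hmmr and Nuf2, of which all but Rrm2 act in mitosis or on chromosome structure. The difference between these 2 arrays had a median of 1.03 over the 5 kinetochore and passenger genes and of 0.34 over the 7 genes of the MCM helicase and sliding clamp.

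Erythroid, neutrophil and lymphocyte markers were not higher in that array than in em-KCs. The mean of 7 measured erythroid progenitor markers was 5.79 in day 15 replicate 3 and 5.87 and 5.99 in replicates 1 and 2, against 5.88 to 6.25 in em-KCs. The mean of 10 neutrophil markers was 5.27 in replicate 3, against 5.31 to 5.69 in em-KCs, and that of 10 lymphocyte markers was 5.54, against 5.54 to 6.08. Monocyte markers, 7 genes with Ccr2 and Cx3cr1 among them, averaged 7.11 in replicate 3 and 7.25 and 7.23 in replicates 1 and 2, against 6.26 to 6.80 in em-KCs. All 3 day 15 arrays were above all em-KC arrays by this mean. Ccr2 and Cx3cr1 were higher, by 2.90 and 2.43, the other 5 genes were not called, and the median difference of the 7 was 0.07, with 4 above 0. Hepatocyte markers, 13 genes, averaged 7.41 in replicate 3 and 7.42 and 7.82 in replicates 1 and 2, against 7.45 to 9.58 in em-KCs, so that replicates 1 and 3 were below every em-KC array. Their median difference was -0.63, 0 of the 13 were called and 6 were lower at an unadjusted p under 0.05. The part of the monocyte and hepatocyte markers in the result was not tested.

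**Figure D2:**
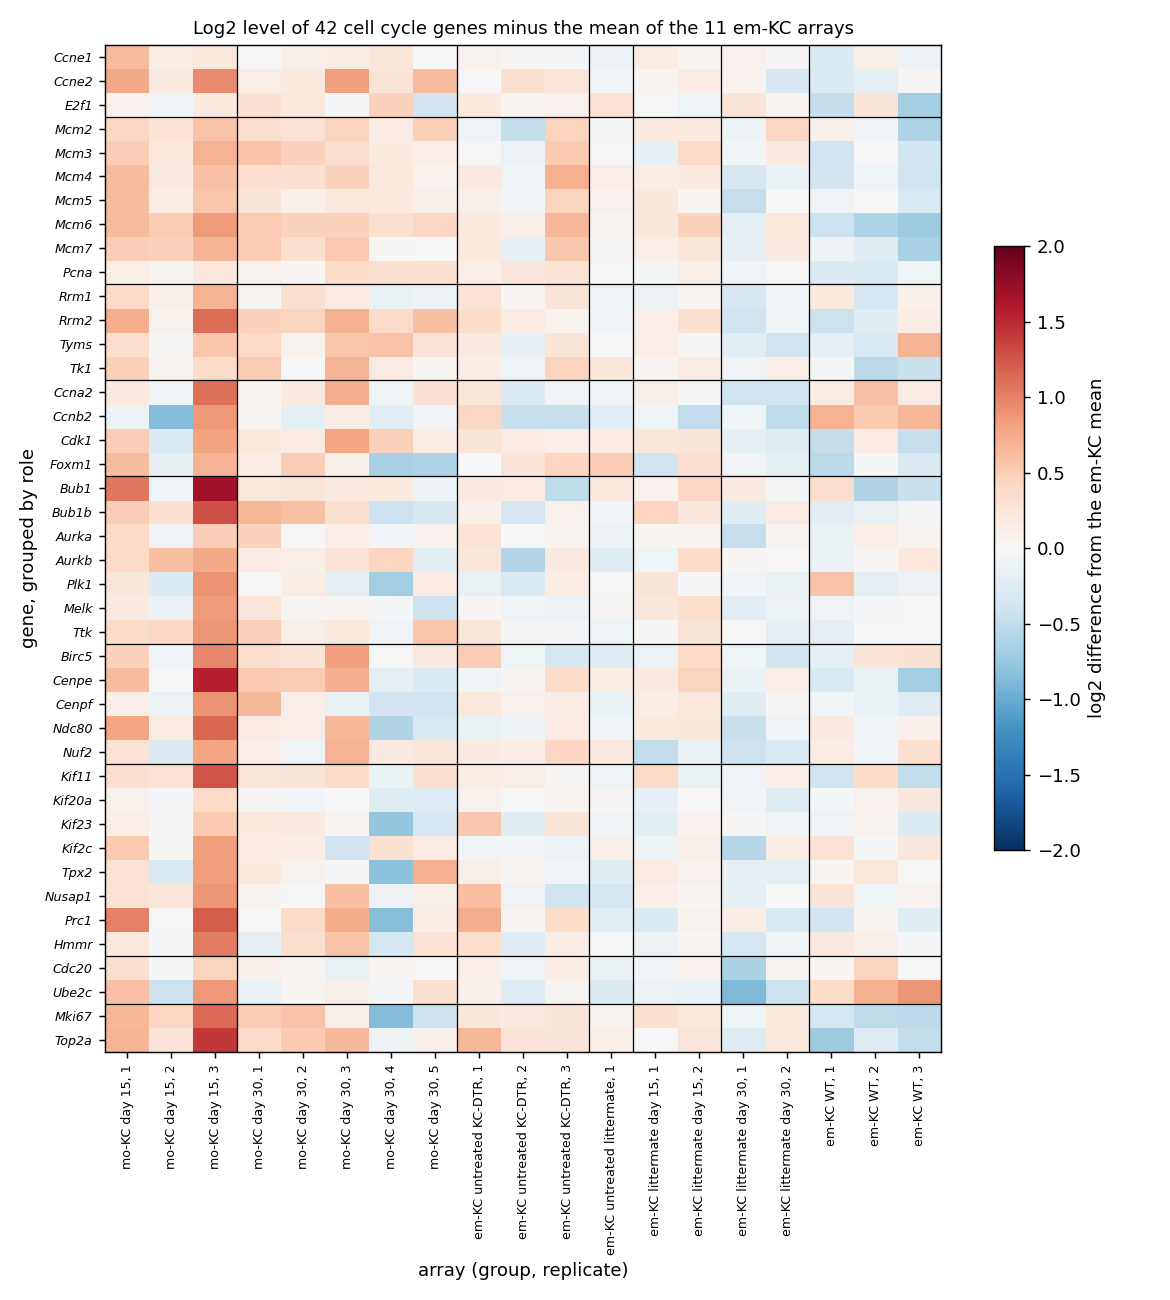
Log2 level of each of the 42 genes (lines, grouped by role from the G1/S cyclins at the top to chromosome structure at the bottom) in each of the 19 arrays (columns), minus the mean of the 11 em-KC arrays of that gene. Red is above and blue below the em-KC mean on a scale of -2 to 2 log2 units, and the column of day 15 replicate 3 is red for all 42 genes.

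No single gene of the 42 passed the test at day 15. In limma's test over all 19938 genes at an adjusted p under 0.05, 0 of the 42 differed between day 15 mo-KCs and em-KCs, and 100 genes in all did (0.502%). The fitted difference was above 0 for 41 of the 42, which held for 45.9% of all genes, and its median was 0.41, against -0.01 over all genes. At an unadjusted p under 0.05, 24 of the 42 were higher (2.98% of all genes) and 0 were lower (3.06%). Every array of day 15 was above every em-KC array for 4 of the 42 genes, Mki67, Ccne1, Aurkb and Ttk, against 0.752% of all genes. For 6 genes, Ccne1, Cdc20, Aurka, Kif20a, Pcna and E2f1, the 95% interval of the difference lay within 1.5-fold either way, which held for 87.8% of all genes.

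These values moved with single arrays. Without day 15 replicate 3 the median difference of the 42 genes was 0.27, 9 were higher at an unadjusted p under 0.05 (2.16% of all genes) and 0 passed the adjusted test (0.286% of all genes). Without replicate 2 the median was 0.59, 37 were higher at the unadjusted level (2.9% of all genes), and Ccne2, Bub1 and Rrm2 passed the adjusted test (0.386% of all genes).

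The largest difference at day 15 was that of Bub1, a kinase of the spindle checkpoint. It was 6.39, 5.25 and 7.01 in day 15 replicates 1 to 3, against 4.74 to 5.76 in em-KCs with a median of 5.50. Replicates 1 and 3 were above all em-KC arrays and replicate 2 was below their median. The fitted difference was 0.88 ± 0.25 (SE), with a limma adjusted p of 0.203.

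Top2a encodes the topoisomerase that untangles sister chromosomes. It was 7.87, 7.45 and 8.61 in the 3 day 15 arrays, against 6.48 to 7.86 in em-KCs with a median of 7.32. Replicate 2 lay within the em-KC range and the difference of 0.78 ± 0.24 (SE) had an adjusted p of 0.266 in limma. Mki67, which encodes the proliferation antigen Ki-67, was 7.93, 7.69 and 8.39 at day 15, against 6.73 to 7.60 in em-KCs with a median of 7.43. All 3 day 15 arrays were above all 11 em-KC arrays. The difference was 0.75 ± 0.24 (SE, adjusted p = 0.359 in limma). Within the set of 13 arrays, which holds all day 15 arrays and the 8 colony em-KC arrays, it was 0.57 ± 0.12 (SE) and passed the test (adjusted p = 0.0242), as did that of Ndc80, a kinetochore protein, at 0.73 ± 0.17 (SE, adjusted p = 0.0465). These were 2 of the 42 genes, where 1.16% of all genes passed.

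Other genes with separate groups at day 15 had smaller differences. Aurkb, the kinase of the chromosomal passenger complex, was 7.41, 7.61 and 7.77 at day 15, against 6.44 to 7.38 in em-KCs with a median of 7.03. Its lowest day 15 array exceeded the highest em-KC array by a small step, and the difference of 0.58 ± 0.15 (SE) had an adjusted p of 0.122. Ccne1, one of the cyclin E genes, was 6.46, 5.98 and 6.03, against 5.56 to 5.97 in em-KCs with a median of 5.86, so that replicates 2 and 3 cleared the em-KC range only just. Its difference was 0.33 ± 0.10 (SE, adjusted p = 0.266).

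At the other end stood Ccnb2, E2f1 and Pcna. Ccnb2, the cyclin B2 gene, was 8.18, 7.40 and 9.14 at day 15, against 7.77 to 8.97 in em-KCs with a median of 8.18, so that one day 15 array was above and one below the whole em-KC range. The difference was -0.03 ± 0.29 (SE, adjusted p = 0.995), with a 95% interval of -0.64 to 0.57. E2f1, whose protein turns on replication genes, was 7.12, 6.95 and 7.23, against 6.36 to 7.32 in em-KCs with a median of 7.11. All 3 day 15 arrays lay inside the em-KC range (difference 0.07 ± 0.18, SE, adjusted p = 0.983). Pcna, the sliding clamp of DNA polymerases, was 11.29, 11.20 and 11.38, against 10.86 to 11.43 with a median of 11.16, and also overlapped throughout. Its difference was 0.13 ± 0.11 (SE, adjusted p = 0.95), with an interval of -0.10 to 0.36.

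**Figure D3:**
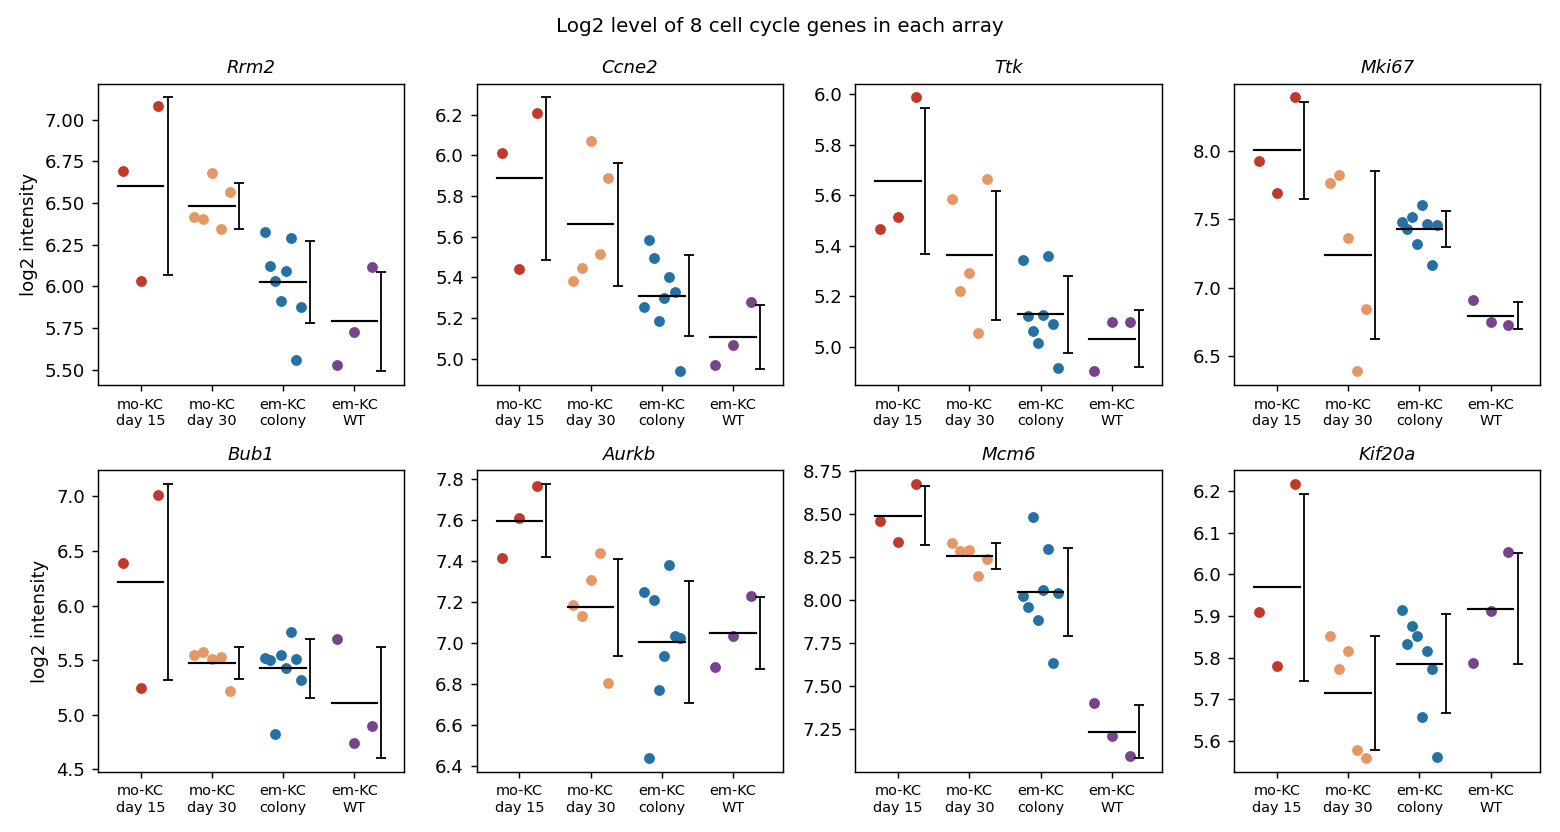
Log2 intensity of Rrm2, Ccne2, Ttk, Mki67, Bub1, Aurkb, Mcm6 and Kif20a in each array (points), with group mean (line) and SD (bar), for day 15 mo-KCs, day 30 mo-KCs, colony em-KCs and WT em-KCs. All 3 day 15 points of Mki67 and Aurkb are above all em-KC points, and all 5 day 30 points of Rrm2 are.

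By role, the median difference at day 15 was above 0 in all parts of the cycle, but not in each array. In replicate 2 the median difference from the em-KC mean was -0.25 over the mitotic cyclins, Cdk1 and Foxm1. It was -0.23 over the partners of the anaphase-promoting complex, -0.07 over the kinases and -0.06 over the kinetochore and passenger genes. In the other roles it was between 0.01 (spindle and cytokinesis) and 0.34 (chromosome structure), with 0.21 over the MCM helicase and sliding clamp. Among the G1/S cyclins and E2f1 (3 genes) the median difference was 0.33, and in the MCM helicase and sliding clamp (7 genes) it was 0.46. The 6 MCM genes lay between 0.42 for Mcm2 and 0.66 for Mcm6, and all 6 had an unadjusted p under 0.05. The em-KC arrays of this comparison include the WT arrays. In those, all 7 genes of the MCM helicase and sliding clamp were lower than in colony em-KCs, with a median of -0.34. The day 15 differences of these genes are thus larger than they would be against colony em-KCs alone. The genes of nucleotide supply (4 genes) had a median difference of 0.35 at day 15. They are the ribonucleotide reductase subunits Rrm1 and Rrm2, thymidylate synthase Tyms and thymidine kinase Tk1.

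Of the mitotic genes, the kinases Aurka, Aurkb, Plk1, Bub1, Bub1b, Ttk and Melk had a median difference of 0.55. The kinetochore and passenger genes Ndc80, Nuf2, Cenpe, Cenpf and Birc5 had 0.46, and the spindle and cytokinesis genes Kif11, Kif20a, Kif23, Kif2c, Tpx2, Nusap1, Prc1 and Hmmr had 0.43. Ccna2, Ccnb2, Cdk1 and Foxm1, the entry into mitosis, had 0.35. For Cdc20 and Ube2c, which work with the anaphase-promoting complex that ends mitosis, the differences were 0.24 and 0.34. None of these single genes was called.

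At day 30 the difference was above 0 for most of the 42 genes, with a smaller median. Again 0 of the 42 genes passed limma's test against em-KCs, where 157 of all genes did (0.787%). The difference was above 0 for 34 of the 42 (45% of all genes) with a median of 0.15, and 9 genes were higher at an unadjusted p under 0.05 (6.05% of all genes) and 0 were lower (6.9%). The 9 were Ccne2, Cdk1, Rrm2, Mcm2, Mcm3, Mcm6, Pcna, Tyms and Ttk. These counts differed with the arrays used. Against the 8 colony em-KC arrays, 5 of the 42 genes were higher at that level and 0 were lower. Within the set of 13 arrays 3 were higher and 0 lower. Within the set of 6, 12 were higher and 2 lower. The share of all genes at that level also differed between these fits. Against all em-KCs the median difference was 0.28 over the 14 G1/S and replication genes and 0.10 over the 28 mitotic genes. Within the set of 13 arrays these medians were 0.20 and 0.17, and within the set of 6 they were 0.53 and 0.03. The difference between the gene groups was not tested. For 31 of the 42 genes the 95% interval lay within 1.5-fold (91.1% of all genes).

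Rrm2, the regulated subunit of ribonucleotide reductase, had the largest difference at day 30. It was 6.42, 6.41, 6.68, 6.34 and 6.57 in day 30 replicates 1 to 5, against 5.53 to 6.32 in em-KCs with a median of 6.03. All 5 day 30 arrays were above all 11 em-KC arrays, which held for no other of the 42 genes and for 0.176% of all genes. The lowest day 30 array, at 6.34, cleared the highest em-KC array, at 6.32, only just. The difference was 0.52 ± 0.15 (SE, limma adjusted p = 0.111).

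Mcm6, a subunit of the replicative helicase, was 8.33, 8.28, 8.29, 8.14 and 8.24 at day 30, against 7.10 to 8.48 in em-KCs with a median of 7.96. The day 30 arrays were tightly grouped inside the upper part of the em-KC range (difference 0.43 ± 0.17, SE, adjusted p = 0.292). Ccne2, the other cyclin E gene, was 5.38, 5.45, 6.07, 5.52 and 5.89, against 4.94 to 5.58 in em-KCs with a median of 5.28. Replicates 3 and 5 were above every em-KC array and the other 3 were not (difference 0.41 ± 0.13, SE, adjusted p = 0.179).

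The 3 lowest differences at day 30 were in Kif23, Plk1 and Kif20a, which act at the spindle midzone and in mitotic entry and cytokinesis. Kif23 was 8.55, 8.52, 8.40, 7.57 and 8.01 at day 30, against 8.07 to 8.89 in em-KCs with a median of 8.29, so that replicates 4 and 5 were below the whole em-KC range. Plk1 was 6.22, 6.37, 6.02, 5.53 and 6.38, against 5.91 to 6.79 with a median of 6.17, and Kif20a was 5.85, 5.77, 5.82, 5.58 and 5.56, against 5.56 to 6.05 with a median of 5.83. The differences were -0.14 ± 0.15 for Kif23, -0.12 ± 0.16 for Plk1 and -0.11 ± 0.08 for Kif20a (SE, adjusted p = 0.751, 0.825 and 0.646). All 3 intervals lay within 1.5-fold.

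One day 30 array was low for several mitotic genes. Day 30 replicate 4 was the lowest of all 19 arrays for 9 of the 42 genes, against 6.78% of all genes. These were Mki67, Bub1b, Plk1, Kif23, Tpx2, Prc1, Foxm1, Hmmr and Ndc80. The 14 G1/S and replication genes averaged 7.66 in that array, against 7.61 to 7.84 in the other 4 day 30 arrays. Without replicate 4 the median day 30 difference of the 42 genes was 0.22, with 39 of the 42 above 0.

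The level of Mki67 is given by array set as well. It was 7.76, 7.82, 7.36, 6.39 and 6.85 in day 30 replicates 1 to 5, against 6.73 to 7.60 in em-KCs with a median of 7.43. The pooled difference was -0.02 ± 0.20 (SE, adjusted p = 0.979). In the set of 13 arrays, replicates 1 and 2 were above all 8 colony em-KC arrays, with a difference of 0.36 ± 0.14 (SE, adjusted p = 0.569). In the set of 6, replicates 3 to 5 lay on both sides of the 3 WT em-KC arrays, which were at 6.91, 6.75 and 6.73, with a difference of 0.07 ± 0.22 (SE, adjusted p = 0.887). The difference between the sets was -0.29 ± 0.24 (SE, adjusted p = 0.555).

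Pcna was the 1 gene of the 42 whose day 30 difference itself was found to differ between the sets, by 0.57 ± 0.14 (SE, limma interaction, adjusted p = 0.0301), where 845 genes did (4.24%). In the set of 6, day 30 replicates 3 to 5 were at 11.53, 11.46 and 11.48, against 10.89, 10.86 and 11.07 in WT em-KCs. The groups did not overlap and the difference was 0.55 ± 0.12 (SE, adjusted p = 0.0401). In the set of 13, replicates 1 and 2 were at 11.25 and 11.21, against 11.11 to 11.43 in colony em-KCs, and the difference was -0.01 ± 0.10 (SE, adjusted p = 0.992). The call between the sets was lost without any one of day 30 replicates 1, 2, 3 and 5 and WT replicates 1 and 2, with adjusted p between 0.0504 and 0.128.

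Within the set of 6, Mcm6 was also higher in day 30 mo-KCs, by 0.99 ± 0.13 (SE, adjusted p = 0.00895), and Ccnb2 was lower, by -0.68 ± 0.14 (SE, adjusted p = 0.0327). Pcna, Mcm6 and Ccnb2 were the 3 of 42 called there, where 827 genes were (4.15%), and in the set of 13 arrays 0 of the 42 were. The mean of the hepatocyte markers was 7.70, 8.49 and 8.57 in day 30 replicates 3 to 5, against 9.34 to 9.58 in WT em-KCs, and its part in these calls was not tested. All em-KC arrays of the set of 6 are from WT mice whose labels give no DT. Its mo-KC arrays are all from KC-DTR mice after DT, so that cell origin, mouse source, genotype and DT cannot be told apart there. In WT against colony em-KCs, Mcm6 and Pcna were lower and Ccnb2 higher, by -0.81, -0.30 and 0.87. The differences between the sets were 0.73 ± 0.22 for Mcm6 and -0.84 ± 0.27 for Ccnb2 (SE, adjusted p = 0.0748 and 0.089). Cdk1, which drives entry into mitosis, and Ccne2 had the next highest such values, 0.64 and 0.61 (adjusted p = 0.183 and 0.122), and Ube2c and the checkpoint kinase Bub1b the next lowest, -0.71 and -0.60 (adjusted p = 0.167 and 0.219).

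**Figure D4:**
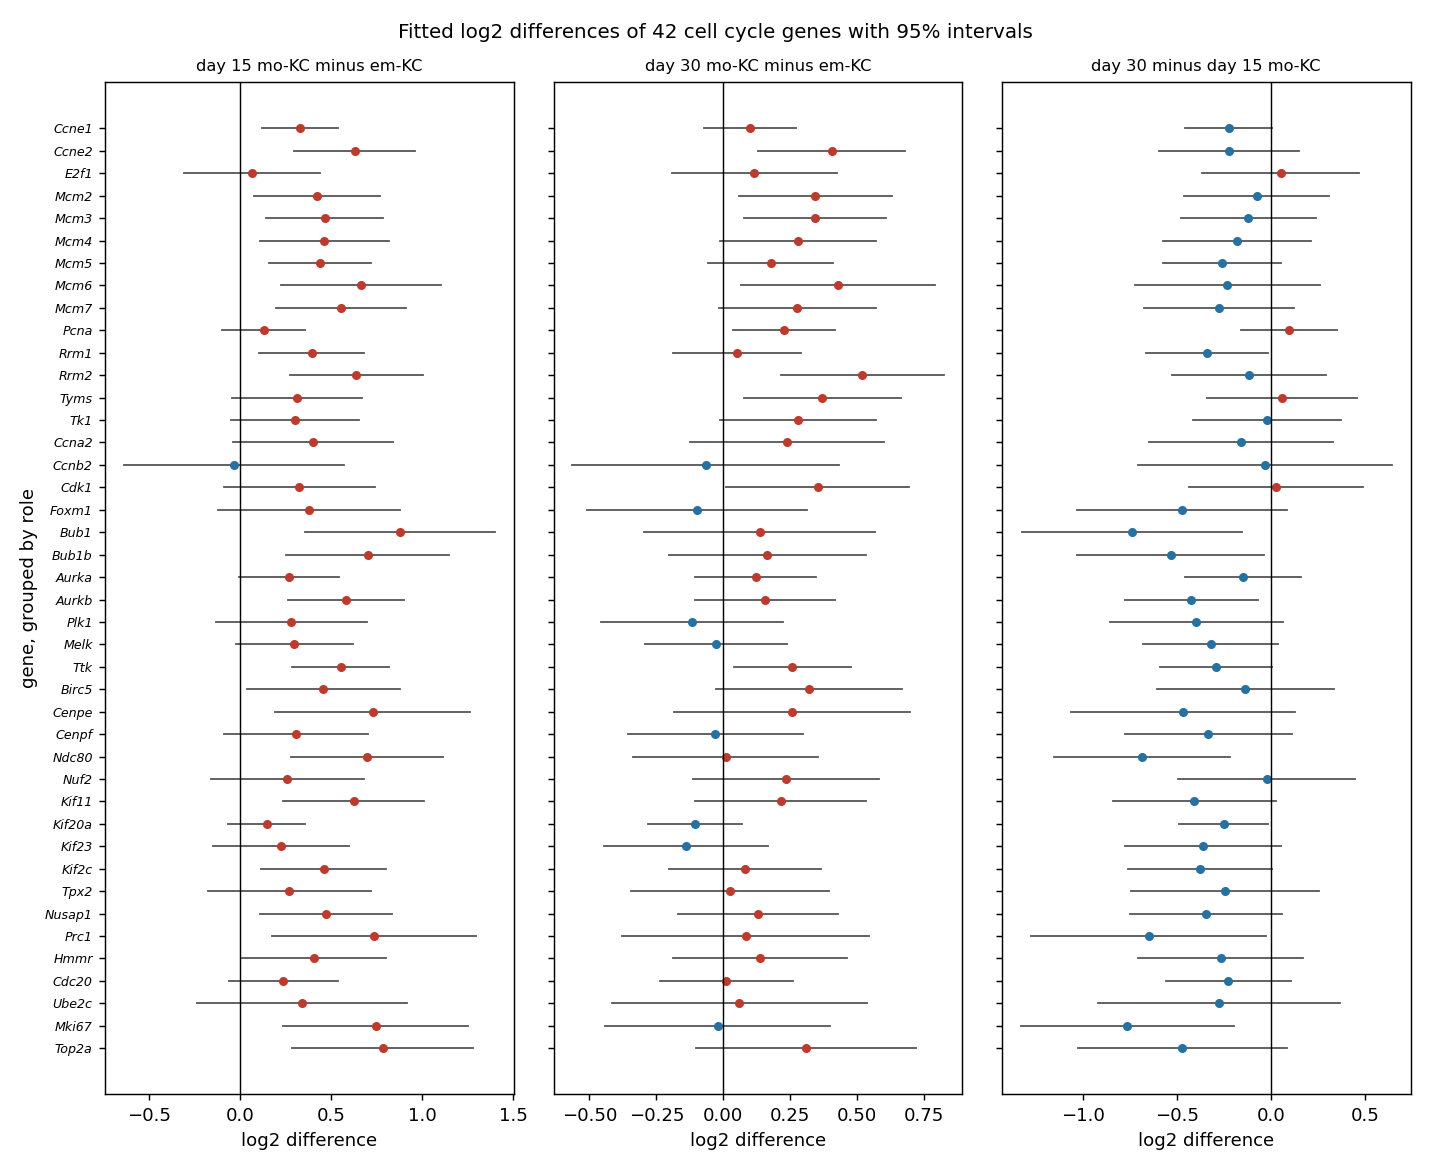
Fitted log2 difference (point) with its 95% interval (line) for each of the 42 genes, grouped by role, for day 15 mo-KCs minus em-KCs, day 30 mo-KCs minus em-KCs and day 30 minus day 15 mo-KCs. Red points are above 0 and blue points below, with 41, 34 and 4 of the 42 above 0.

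With mo-KCs of both days set against em-KCs, 3 of the 42 genes were higher (0.446% of all genes) and 0 were lower (0.742%), where 237 genes passed (1.19%). The 3 were Rrm2, Ccne2 and Ttk. The difference was above 0 for 41 of the 42 genes (44.7% of all genes), with a median of 0.31, and 27 were higher at an unadjusted p under 0.05 (5.03% of all genes).

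Rrm2 was 6.69, 6.03 and 7.08 in the 3 day 15 arrays, beside the day 30 values above, so that 7 of the 8 mo-KC arrays were above all em-KC arrays. It rose by 0.58 ± 0.13 (SE), 1.49-fold, with a limma adjusted p of 0.0214. Ccne2 was 6.01, 5.44 and 6.21 at day 15, with replicate 2 inside the em-KC range, and rose by 0.52 ± 0.12 (SE, adjusted p = 0.024). Ttk, the kinase Mps1 of the spindle checkpoint, was 5.46, 5.51 and 5.99 at day 15 and 5.58, 5.22, 5.29, 5.05 and 5.66 at day 30, against 4.90 to 5.36 in em-KCs with a median of 5.10. All 3 day 15 arrays and 2 of the 5 day 30 arrays were above the em-KC range, and it rose by 0.41 ± 0.09 (SE, adjusted p = 0.0281).

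These 3 calls were lost when single arrays were left out. Without day 15 replicate 3 the adjusted p was 0.137 for Rrm2, 0.145 for Ccne2 and 0.163 for Ttk. Against the 8 colony em-KC arrays alone it was 0.0583 for Rrm2, 0.0849 for Ccne2 and 0.083 for Ttk, and within the set of 13 arrays it was 0.23, 0.319 and 0.0939. The call of Rrm2 was also lost without day 15 replicate 1 (0.0813). That of Ccne2 was lost without day 15 replicate 1 (0.0984) or day 30 replicate 5 (0.05002), and that of Ttk without day 30 replicate 1, day 30 replicate 5 or 1 littermate array (0.0515 to 0.0521). Ccne2 and Ttk averaged under 6 in every group.

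Of the genes not called over both days, Mcm6 had the largest difference, 0.55 ± 0.15 (SE, adjusted p = 0.105), and it was 8.46, 8.34 and 8.68 at day 15. Top2a followed with 0.55 ± 0.17 (SE, adjusted p = 0.188). In a fit with the set as a block, 7 of the 42 genes were higher over both days, namely Rrm2, Ccne2, Ttk, Top2a, Mcm3, Mcm6 and Mcm7, where 2.33% of all genes passed.

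Between the days themselves 0 of the 42 genes passed, where 4 of all genes did (0.0201%). The difference of day 30 minus day 15 was above 0 for 4 of the 42 genes (49.9% of all genes) with a median of -0.27, and 8 genes were lower at day 30 at an unadjusted p under 0.05 (2.63% of all genes), namely Mki67, Bub1, Bub1b, Aurkb, Kif20a, Prc1, Rrm1 and Ndc80. Without day 15 replicate 3 the median was -0.09 and 1 gene was lower at that level (2.36% of all genes), Ccne1, which is not among those 8. The comparison shares its arrays with both comparisons against em-KCs.

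Mki67, Bub1 and Ndc80 had the lowest differences. For Mki67 the difference was -0.77 ± 0.27 and for Bub1 it was -0.74 ± 0.28 (SE, adjusted p = 0.92 for both). Within the set of 13 arrays the difference of Mki67 was -0.21 ± 0.16. Ndc80 was 6.89, 6.84, 7.38, 6.11 and 6.41 at day 30 and 7.51, 6.88 and 7.86 at day 15, with a difference of -0.69 ± 0.23 (SE, adjusted p = 0.92). The ranges of day 30 and day 15 overlapped for all 3 genes.

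Pcna, Tyms and E2f1 had the highest differences between the days, at 0.10 ± 0.12, 0.06 ± 0.19 and 0.05 ± 0.20 (SE, adjusted p = 0.947, 0.978 and 0.981). Mcm6 was the 1 gene of the 42 (2.38%) for which every day 30 array lay below every day 15 array, a share near that of all genes (1.55%). Its highest day 30 array, at 8.334, was only just below its lowest day 15 array, at 8.339. Its difference was -0.23 ± 0.24 (SE, adjusted p = 0.935), and 0.10 ± 0.19 in the fit with the set as a block.

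The em-KC arrays were not alike either, and the WT em-KCs differed from the colony em-KCs in 6 of the 42 genes, where 3571 of all genes passed (17.9%). A share of 6 in 42 is close to that background. Ube2c and Ccnb2 were higher in WT em-KCs (7.77% of all genes were), and Mcm6, Top2a, Pcna and Tk1 were lower (10.1%).

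Ube2c, the ubiquitin-conjugating enzyme of the anaphase-promoting complex, was 7.41, 7.77 and 7.94 in WT em-KCs, against 6.18 to 7.16 in colony em-KCs with a median of 6.85. The groups did not overlap, which held in this direction for 8.43% of all genes, and the difference was 0.90 ± 0.20 (SE, limma adjusted p = 0.00503). Ccnb2 was 8.97, 8.80 and 8.94 in WT em-KCs, against 7.77 to 8.68 with a median of 7.93, again with no overlap, and was higher by 0.87 ± 0.25 (SE, adjusted p = 0.0247).

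Mcm6 was 7.40, 7.21 and 7.10 in WT em-KCs, against 7.63 to 8.48 in colony em-KCs with a median of 8.04. No WT array reached the colony range (9.28% of all genes lay below in this way), and the difference was -0.81 ± 0.12 (SE, adjusted p = 0.000279). Pcna did not overlap either and was lower by -0.30 ± 0.09 (SE, adjusted p = 0.0265). Top2a was 6.48, 6.93 and 6.70, against 6.93 to 7.86 with a median of 7.42, a difference of -0.68 ± 0.20 (SE, adjusted p = 0.0293). Tk1 was 8.53, 8.06 and 8.14, against 8.51 to 9.03 with a median of 8.72, a difference of -0.46 ± 0.15 (SE, adjusted p = 0.0452).

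Ube2c and Mcm6 kept their calls when any one array was left out. Ccnb2 lost its call without any one of the WT arrays (adjusted p = 0.0547 to 0.0772), and Top2a without WT replicate 1 (0.125), WT replicate 3 (0.0808) or untreated KC-DTR replicate 1 (0.0553). Pcna lost it without WT replicate 1 (0.0896), WT replicate 2 (0.108), or untreated KC-DTR replicate 2 (0.0525) or 3 (0.0585). Tk1 lost it in 10 of the single-array leave-outs, with adjusted p of up to 0.184 without WT replicate 2.

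Mki67 and Cenpe also lay below the colony range in all 3 WT arrays without passing the test, with -0.63 ± 0.23 for Mki67 (SE, adjusted p = 0.0623) and -0.52 ± 0.26 for Cenpe (SE, adjusted p = 0.173). Ccna2 had the next highest difference, 0.41 ± 0.20 (SE, adjusted p = 0.168). The mean of the 14 G1/S and replication genes was 7.18 to 7.24 in WT em-KCs, against 7.28 to 7.77 in colony em-KCs, while that of the 28 mitotic genes was 6.41 to 6.50 in WT em-KCs, against 6.23 to 6.67.

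Hepatocyte markers were higher in the same WT arrays. Of 13 measured, 12 passed the test, and their mean was 9.34 to 9.58 in WT em-KCs, against 7.45 to 8.38 in colony em-KCs. Of 8 stellate cell markers, 5 also passed as higher. The WT arrays are all the em-KC arrays of the set of 6, so that mouse source, array set and hepatocyte marker level cannot be told apart here. The part of these markers in the 6 calls was not tested.

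**Figure D5:**
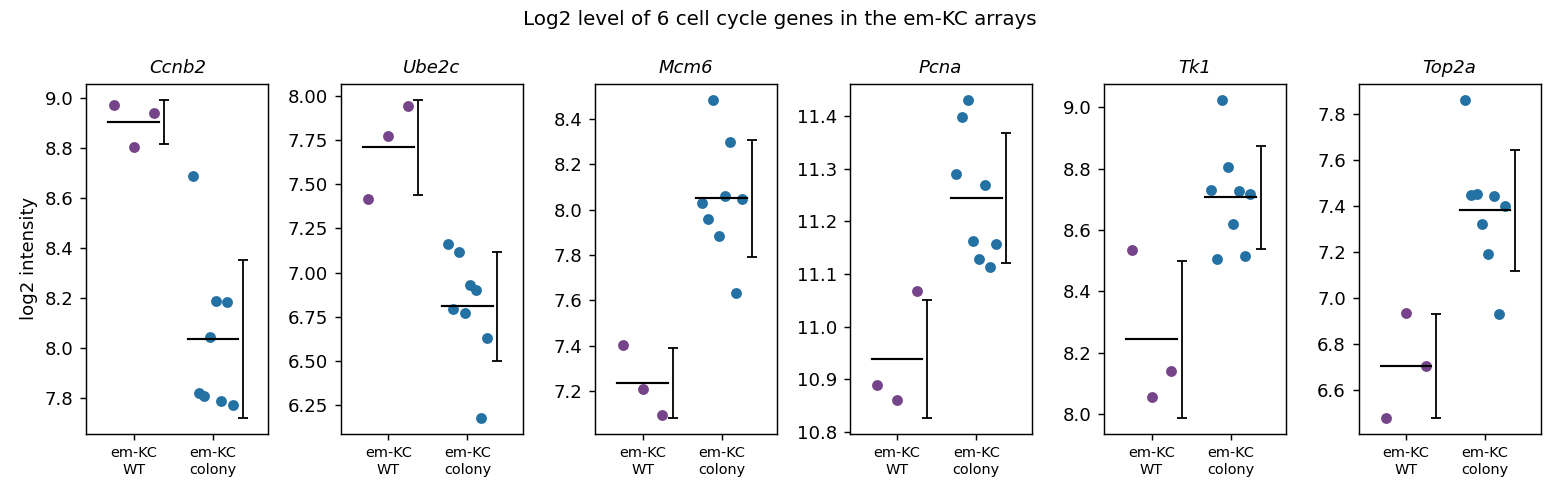
Log2 intensity of Ccnb2, Ube2c, Mcm6, Pcna, Tk1 and Top2a in the 3 WT em-KC and the 8 colony em-KC arrays (points), with group mean (line) and SD (bar). Ccnb2 and Ube2c are higher in WT em-KCs with no overlap, and Mcm6 and Pcna are lower with no overlap.

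The 42 genes varied together, though not evenly. Over all 19 arrays the Pearson r of 2 of these genes had a median of 0.47 over the 861 pairs, of which 823 were above 0, and 0.30 without day 15 replicate 3. The arrays of a group share their condition, and r is given as a description. The genes closest to the mean of the others were Cenpe, which moves chromosomes along the spindle (r = 0.88), and Top2a (r = 0.88). E2f1 (r = 0.18) and Ccnb2 (r = 0.24) were the least alike, and without day 15 replicate 3 Ccnb2 had r = -0.15.

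The 20 genes outside the 42 with the highest r with their mean over the 19 arrays were Kntc1, Kif15, Anln, Brip1, Ncapg, Pole, Lmnb1, Cdca8, Rad54l, Sh2d1b1, Ncaph, Uhrf1, Stmn1, Knl1, E2f8, Clspn, Cep55, Mcm10, D17H6S56E-5 and Kif20b, with r from 0.79 to 0.92. Of these, 17 were on the other cell cycle, replication and chromatin lists drawn up here, which hold 0.900% of the 19896 other genes. Kntc1 and Kif15 had r = 0.92 and 0.91, and 0.83 each without day 15 replicate 3. Without that array the r of the 20 genes ran from 0.59 (Clspn) to 0.83 (Kif15).

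Other cell cycle genes were measured as lists. Of 60 other mitosis genes, 2 were higher at day 15 (0.191% of all genes), both near the threshold. Ncapg, a condensin subunit, was higher by 0.66 ± 0.15 (SE, adjusted p = 0.0456) and Aspm, a spindle pole protein, by 0.66 ± 0.15 (SE, adjusted p = 0.0494). In day 15 replicates 1 to 3 Ncapg was 6.46, 6.28 and 7.10, against 5.69 to 6.29 in em-KCs. Aspm was 5.71, 5.42 and 5.84, against 4.52 to 5.36. The median difference of that list was 0.41, against -0.01 over all genes, and at day 30 it was 0.14 with 0 called. Over both days 4 were higher (0.446% of all genes). The largest were Spc25, a partner of Ndc80 at the kinetochore (0.83 ± 0.18, SE, adjusted p = 0.0199), and Fbxo5, an inhibitor of the anaphase-promoting complex (0.71 ± 0.16, SE, adjusted p = 0.0214), followed by Ncapg and Nek2.

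Of 45 other replication genes, 0 were called at day 15, where the median was 0.30, and 0 at day 30, where it was 0.20. By the limma interaction, the day 30 difference was higher in the arrays with high Xist for 7 of the 45 (2.66% of all genes). It was lower for 0 (1.57%). The 7 were Gins4, Prim1, Rfc2, Rfc3, Rfc4, Rpa3 and Tipin. The largest value was that of Rpa3, at 1.92 ± 0.22 (SE, adjusted p = 0.000536). All em-KC arrays with high Xist are from WT mice, so that cell origin and mouse source cannot be told apart there. Cdc6, which loads the MCM helicase onto DNA, was the 1 gene of the 45 called over both days (1.19% of all genes), at 0.53 ± 0.11 (SE, adjusted p = 0.0105). Of 13 genes of replicative histones and chromatin, 0 were called on either day alone. Stmn1 and Cbx5 were higher over both days (0.446% of all genes), by 0.45 ± 0.11 and 0.38 ± 0.09 (SE, adjusted p = 0.0485 and 0.0474). Of 22 genes of replication stress and repair, 0 were called at day 15, at day 30 or over both days.

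Of 39 genes of G1 control, which hold D-type cyclins, retinoblastoma family genes and inhibitors of cyclin-dependent kinases, 0 were called at day 15, at day 30 or over both days, with medians of 0.09, 0.03 and 0.06. In WT em-KCs against colony em-KCs, 11 of the 45 other replication genes were lower (10.1% of all genes) and 0 were higher (7.77%), the largest falls being in Rfc1, Rpa3, Rfc4 and Tipin (-1.18, -0.94, -0.91 and -0.91), with a list median of -0.30, against 0.04 over all genes. Of the 39 G1 control genes, E2f4 alone was higher there, by 0.53 (adjusted p = 0.00386), where 7.77% of all genes were. The inhibitor Cdkn1b and the antiproliferative gene Btg2 alone were lower, by -0.66 and -2.17 (adjusted p = 0.00593 and 0.00032), where 10.1% of all genes were. In neither direction was the share of this list above that of all genes. These lists were not refitted without single arrays.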

How the data were processed

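RNA of sorted KCs was hybridised to Affymetrix Mouse Gene 1.0 ST arrays. The deposited values are log2 intensities made by the authors with RMA (background correction, quantile normalisation and probe summary), with no RMA version given in the sources used here. Array data have no read depth, and the number of arrays limits the precision.

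Of 35556 probesets, 21789 had 1 gene symbol in the platform annotation, 1621 had several and 12146 had none. Only those with 1 symbol were used, as in the methods of the study, with the highest-mean probeset per gene (19938 genes). Tests used limma 3.58.1 in R 4.3.3 on 19 arrays in 1 fit of 3 groups, with the Benjamini-Hochberg correction run on the 19938 genes and 0.05 as the threshold. WT and colony em-KCs were compared in a fit of 7 conditions, and the array sets by an interaction. The fit was tested on simulated data. Of genes changed 1.5-fold, it recovered 58.2% at day 15, 79.1% at day 30, 89.6% over both days and 55.2% between the days. Of genes changed 2-fold, it recovered 92.5% to 97.0%. There were 5 to 12 false calls per comparison. Many differences of about 1.5-fold would thus be missed at day 15 and between the days. Of 171 array pairs, 0 were identical. The labels do not say that replicates came from separate mice, so p-values measure the spread between these arrays.

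Full values are given for each of the 42 genes called in any comparison, the 3 highest and 3 lowest differences per comparison, and Mki67. Up to 4 called genes are named per other list. The genes and lists were chosen with earlier results of these data known. Alternatives were other normalisations, filters, variance models, blocks, reference arrays and tests, and leaving out each array.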

Additional observations from a re-analysis of the deposited data

Results flagged for a closer look

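Among groups of 5 arrays, 1 array stood far from the other 4 for 2 of the 43 values tested (the 42 genes and their mean), where chance alone marks about 1 in 20. Bub1 was 5.22 in day 30 mo-KC replicate 5 and 5.51 to 5.58 in the other 4 day 30 arrays. Kif2c, a kinesin that takes microtubules apart, was 5.24 in day 30 mo-KC replicate 3 and 5.77 to 5.93 in the other 4.

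The day 30 difference of Pcna differed between the array sets by a test of that difference. It was higher by 0.57 in the 6 arrays with high Xist than in the em-KC and day 30 arrays of the other set (limma interaction, adjusted p = 0.0301). It kept its sign in every leave-out of 1 array, and the call was lost in 6 of them.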

How the results depend on the processing

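Over the single genes given in full, 1349 pairs of gene and alternative were compared with the results above. Of these, 1265 kept their side of the threshold, 55 lost the call, 29 gained one and 0 calls changed direction. Of the 1265, 50 were differences without a call that changed sign. Where a value moved, the cause was not tested.

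For day 15, the number of the 42 genes called was 1 with a variance trend and robust estimate, 3 with array weights, 2 within the set of 13 arrays, 1 with 7 conditions (Mcm6), 2 at an adjusted p under 0.10 and 21 by the methods' t-test at an unadjusted 0.05. All genes called numbered 242 with array weights, 1251 by the unadjusted t-test, 66 by that test after Benjamini-Hochberg, 168 with the set block, 231 within the set of 13 and 180 with 7 conditions. With the median of the 42 genes in place of their mean, day 15 replicate 3 was 0.700 above the em-KC mean, in place of 0.827.

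For day 30, 8 of the 42 were called by the unadjusted t-test, 2 with the set block (Mcm3 and Mcm6), 3 within the set of 6 arrays and 1 with 7 conditions (Mcm6). All genes called numbered 2365 by the unadjusted t-test, 84 after Benjamini-Hochberg, 514 with the set block, 65 within the set of 13, 827 within the set of 6, 252 with 7 conditions and 307 at an adjusted p under 0.10.

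For both days, 0 of the 42 were called against the 8 colony em-KC arrays and by the t-test after Benjamini-Hochberg, 1 with the filter on low values (Rrm2), 18 by the unadjusted t-test, 7 with the set block and 1 within the set of 13 (Mki67). All genes called numbered 2309 by the unadjusted t-test, 465 with the set block and 408 with 7 conditions. Between the days, 2 of the 42 were called by the unadjusted t-test, and all genes called numbered 782 by that test, 0 after Benjamini-Hochberg and 8 with the set block. For WT against colony em-KCs, 3 of the 42 were called with cyclic loess and 3 with array weights, where 13.9% and 13.5% of all genes were. For the difference between sets, 0 of the 42 were called with cyclic loess and 3 at an adjusted p under 0.10, where 1456 of all genes were.

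Same-numbered arrays of different groups deviated together little (36 pairs, r from -0.12 to 0.15, 5 over 0.1), and the main fit took no pairs from the numbers. With so few arrays per group, such r cannot exclude that arrays were paired. With a replicate block, 49 genes were called at day 30, where the median of the 42 was 0.23, and 155 genes and 0 of the 42 over both days.

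Leaving out 1 array at a time gave 0 to 3 of the 42 called at day 15, with 57 to 111 of all genes, a median difference of 0.27 to 0.59 and a day 15 mean 0.242 to 0.634 above em-KCs. It gave 93 to 316 genes and a median of 0.13 to 0.22 at day 30, 157 to 252 genes and 0 to 7 of the 42 over both days, a median of -0.43 to -0.092 between the days and 3 to 8 of the 42 for WT em-KCs. For the difference between sets it gave 215 to 1067 genes, 0 to 2 of the 42 and a median of -0.14 to 0.10.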
